A study of Mus musculus with 16 samples.

Results

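The 43 interferon-inducible genes described here were chosen as a list of gene names from 24454 genes in the deposited counts of *gastrocnemius* muscle. They comprised 5 transcription factors, 4 sensors of foreign RNA or DNA, 19 antiviral effectors and their regulators, 10 interferon-inducible GTPases, 3 genes of antigen presentation and 2 chemokines. All 43 were counted and passed the filter on low counts, among 15487 genes that did. RNA-seq was done on 1 library for each of 16 mice at 3 months of age. FVB mice (FVB/N), the wild-type background strain, had received vehicle (n = 3; mice S445, S446 and S450) or AICAR (n = 3; S447, S448 and S449). HSALR mice, a model of Myotonic Dystrophy type I on that background, had received vehicle (n = 5; S451, S452, S453, S458 and S459) or AICAR (n = 5; S454, S455, S460, S462 and S463). AICAR, which activates AMP-activated protein kinase, was given at 500 mg/kg for 7 days. The HSALR mice, homozygous for the line LR20b, carry a human skeletal actin transgene with an expanded CTG repeat. The transgene is driven by the skeletal actin promoter, so that the repeat RNA is made in muscle fibres and the model does not reproduce its expression in other cells. The study was about neuromuscular junctions and CaMKII signalling in mouse models of this disease. It found no dystrophic sign in muscle of mutant mice at 3 months of age. Values per mouse are given below in the order of the mice listed here.

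Interferons are secreted proteins that alert cells to infection. Type I interferons act through the kinases JAK1 and TYK2 and lead to the binding of a complex with STAT2 and IRF9 to a DNA element called ISRE. Type II interferon, or interferon gamma, acts mainly through another element, GAS. The induced genes encode sensors of viral RNA, proteins that block viral replication, GTPases that attack the vacuoles of intracellular pathogens, and parts of the pathway that shows peptides to T cells. In skeletal muscle their level is low at rest, and a strong rise is known from inflammatory myopathies such as dermatomyositis.

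Promoters of the members are shown because several GTPase genes carry both elements. RefSeq promoter windows (GRCm38.p6, the assembly also called mm10) covered 250 bases before to 50 bases after the start of a gene, and 32 of the 43 members had at least 1. The ISRE core was searched as GAAANNGAA and the GAS core as TTCNNNGAA, where N is any base, on both strands. The second pattern reads the same on both strands, and matches of the 2 patterns could overlap. An ISRE core was found for 22 of the 32 members (68.8%) and for 9.76% of all 27025 genes with a window. A GAS core was found for 11 of the 32 members (34.4%) and for 9.55% of all genes, and both were found for 7 members (21.9%) and 1.24% of all genes. Of the 8 GTPase genes with a window, all 8 held an ISRE core and 5 held a GAS core as well. In *Tgtp1*, *Tgtp2*, *Igtp* and *Irgm2* the ISRE core began 11 bases after the first base of the GAS core. Counting ISRE cores on the strand of the gene only, this arrangement was present in 8 of all 32851 windows (0.0244%). The windows of these 4 genes are among them, so that the share is not an independent comparison. A match is a description of the letters and does not show that a factor was bound. The 160 bases before the start of 7 genes are printed 5′ to 3′ along the strand of the gene, with matches to the ISRE core or the GAS core in capitals.
Tgtp1 (chr11:48992247-48992406, minus strand): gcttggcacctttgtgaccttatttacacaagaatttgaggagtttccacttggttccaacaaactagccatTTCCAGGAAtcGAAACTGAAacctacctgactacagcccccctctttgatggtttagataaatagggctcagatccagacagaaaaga
Tgtp2 (chr11:49064213-49064372, minus strand): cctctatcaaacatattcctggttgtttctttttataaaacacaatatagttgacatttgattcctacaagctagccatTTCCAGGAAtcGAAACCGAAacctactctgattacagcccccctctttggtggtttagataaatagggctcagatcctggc
Igtp (chr11:58199396-58199555, plus strand): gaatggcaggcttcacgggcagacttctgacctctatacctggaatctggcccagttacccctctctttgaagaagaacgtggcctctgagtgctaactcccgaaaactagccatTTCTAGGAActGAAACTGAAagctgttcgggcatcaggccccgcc
Irgm2 (chr11:58214817-58214976, plus strand): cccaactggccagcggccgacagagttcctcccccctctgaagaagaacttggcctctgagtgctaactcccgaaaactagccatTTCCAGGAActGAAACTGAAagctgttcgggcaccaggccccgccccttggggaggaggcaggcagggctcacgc
Gbp7 (chr3:142530176-142530335, plus strand): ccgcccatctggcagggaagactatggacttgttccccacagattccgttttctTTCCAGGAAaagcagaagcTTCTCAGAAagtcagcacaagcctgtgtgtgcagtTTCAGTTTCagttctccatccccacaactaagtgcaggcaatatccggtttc
Isg15 (chr4:156200819-156200978, minus strand): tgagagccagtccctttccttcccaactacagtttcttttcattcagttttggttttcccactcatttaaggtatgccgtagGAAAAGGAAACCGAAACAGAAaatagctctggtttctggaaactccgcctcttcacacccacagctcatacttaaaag
Ifit1 (chr19:34640729-34640888, plus strand): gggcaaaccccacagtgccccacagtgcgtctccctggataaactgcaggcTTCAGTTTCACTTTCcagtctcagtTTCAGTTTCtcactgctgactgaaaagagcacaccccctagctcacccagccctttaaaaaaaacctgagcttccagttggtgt
Over 70 bases placed around the GAS core, *Igtp* and *Irgm2* were identical at 68 bases (97.1%) and *Tgtp1* and *Tgtp2* at 53 (75.7%), whereas *Tgtp1* and *Igtp* shared 40 (57.1%). The promoters of *Gbp7*, *Isg15* and *Ifit1* are shown for comparison: *Isg15* and *Ifit1* held 3 ISRE cores each and no GAS core, while *Gbp7* held 2 GAS cores and 1 ISRE core. The ISRE cores of *Ifit1* and *Gbp7* are read from the opposite strand.

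Between 64890014 and 81987726 reads were counted per mouse. Levels are given as normalized CPM, that is counts scaled by the library total and its TMM factor. Fold changes and p-values come from the quasi-likelihood test of edgeR, with p-values adjusted by Benjamini and Hochberg's method over all 15487 genes, and a gene is called higher or lower when its adjusted p was under 0.05. Skeletal muscle markers were abundant in every library (*Acta1* between 24411 and 37705 normalized CPM). The summed level of 8 leukocyte markers was between 61.0 and 111 normalized CPM, and that of 3 B cell markers did not exceed 0.223. Krt14, a keratin of epidermis, was over 1 normalized CPM in 6 libraries, namely S450, S452, S453, S458, S459 and S448. The summed level of 8 epidermal markers was between 18.6 and 187 normalized CPM in these libraries and between 0.242 and 1.21 in the other 10.

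The 3 vehicle-treated FVB mice differed in the level of the interferon-inducible genes. The score of a mouse was the median over the 43 members of its log2 normalized CPM minus the mean of the vehicle-treated FVB mice. It was 0.21 in S445 and 0.22 in S446, but -0.38 in S450. S450 had the lowest level of the 3 mice for 35 of the 43 members, while it was the lowest for 37.6% of all genes tested. Vehicle-treated HSALR mice had scores of -0.30, -0.04, -0.42, -0.20 and -0.41, with S452 the highest of the 5 for 19 members, against 17.9% of all genes tested. After AICAR the scores were -0.58, -0.38 and -0.46 in FVB mice and -0.58, -0.10, -0.38, -0.47 and -0.56 in HSALR mice. S455 was the highest of the 5 AICAR-treated HSALR mice for 25 members, against 21.5% of all genes tested. S445 and S446 thus lay above every other mouse, and S450 lay within the range of the other 3 groups. Epidermal markers moved with this difference, since S450 had a summed epidermal level of 92.3 normalized CPM while S445 and S446 had 0.256 and 1.21. However, S452 also held epidermal markers (35.4) and had the highest score of its group, and S455, with the highest score of its group, had a summed level of 0.371. The summed leukocyte level was 61.0 in S445, 85.6 in S446 and 66.3 in S450, and 111 in S455 as the highest of all mice. The part of epidermis or leukocytes in the scores was not tested.

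**Figure D1:**
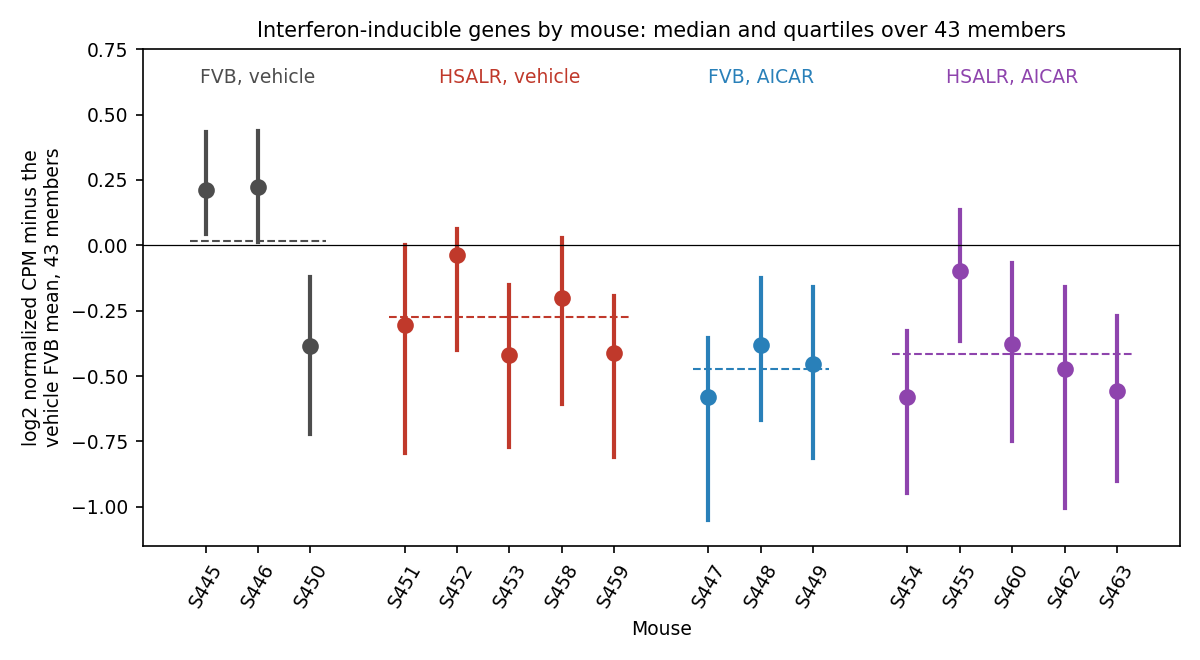
Median (point) and quartiles (bar) over the 43 interferon-inducible genes of log2 normalized CPM minus the vehicle FVB mean, for each of the 16 mice, with the mean of each group's medians as a dashed line. S445 and S446 sit at 0.21 and 0.22, above the other 14 mice, which sit between -0.58 and -0.04.

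HSALR muscle was compared with FVB muscle to ask whether the repeat RNA came with a change of these genes. After vehicle, 7 members were lower in HSALR mice, whereas 11.5% of all genes tested were lower, and 1 member was higher, beside 15.4% of all genes. The median log2 fold change of the members was -0.34 (all genes 0.01), and 38 of 43 members were negative. The 5 HSALR mice did not overlap with the 3 FVB mice for 3 members on the lower side (all genes 13.0%) and 1 on the higher side (16.8%). These counts depended on which FVB mice were used. Without S450, 15 members were lower and 1 higher (20.5% of all genes were called in either direction in that fit), with a median of -0.48. Leaving out S445 left 4 lower members and no higher member (8 at an unadjusted p under 0.05, and 18% of all genes called), with a median of -0.19, and leaving out S446 left 5 lower and 1 higher (21.7% of all genes). Without S452, the HSALR mouse with the highest score, 12 members were lower and 1 higher (24.1% of all genes). With the level of epidermal markers as a covariate in edgeR, *Irgm2* (-0.69, adjusted p = 0.084), *Tap2* (-0.38, 0.08) and *Ifi35* (0.26, 0.05) lost their calls. The other members called with all libraries kept theirs in that fit. Without the 6 libraries with Krt14, which leaves 2 FVB mice and 1 HSALR mouse, 3 were lower (5.80% of all genes were called) and the median was -0.53. Of the 8 members called with all libraries, *Irgm2* then kept its call (log2 fold change -1.44, adjusted p = 0.038) and the other 7 lost it. Their adjusted p-values were from 0.054 for *Gbp7* (-1.36) to 0.50 for *Ifit2* (-0.34), with the lone HSALR mouse assumed to vary like the other groups.

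The same comparison was made after AICAR. Of the 43 members 2 were higher (all genes 12.2%) and 2 were lower (9.64%) in HSALR mice, with a median log2 fold change of 0.08 (all genes 0.00) and 26 positive members. Groups did not overlap for 4 members on the higher side (all genes 15.0%) and 3 on the lower side (11.6%). Without S448 or without S449 there were 2 higher calls and no lower call (9 and 6 members at an unadjusted p under 0.05, and 15.6% and 16.7% of all genes called).

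AICAR was compared with vehicle within each genotype. In FVB mice 8 members were lower after AICAR, beside 4.77% of all genes tested, and 1 was higher, beside 8.40%. The median log2 fold change of the members was -0.48 (all genes -0.01), with 36 negative members. The 3 mice of each group did not overlap for 15 members on the lower side (all genes 15.0%) and 1 on the higher side (18.1%). The calls again depended on S445 and S446, since without S445 there were 2 lower calls (7.74% of all genes were called in either direction) and without S446 there were 1 lower and 1 higher (9.58%). Without S450 there were 17 lower calls and no higher call (27 at an unadjusted p under 0.05, and 9.08% of all genes called), with a median of -0.64. Without the 6 libraries with Krt14 there were 11 lower calls, and 4.47% of all genes were called. The count also fell to 2 lower calls without S447 (11.0% of all genes) and to 1 without S449 (7.29%). In HSALR mice, 1 member was higher (all genes 13.7%) and 1 was lower (13.0%), with a median of -0.10 (all genes -0.02). There the 5 mice of each group did not overlap for 1 member on the higher side (all genes 10.2%) and 2 on the lower side (7.48%). The lower call was lost without S452, S454, S462 or S463. Without the 6 libraries with Krt14, which leaves S451 as the lone vehicle-treated HSALR mouse and assumes that it varies like the other groups, edgeR called 0 members (2 at an unadjusted p under 0.05) and 5.77% of all genes. The vehicle-treated FVB mice are shared by the comparison of the genotypes after vehicle and that of AICAR in FVB mice. They are also part of the difference of the AICAR effects given below, so that a high mouse among them enters all of these.

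The difference of the AICAR effects between the genotypes was tested for each member. In edgeR's quasi-likelihood test 0 of 43 members were called, where 0.691% of all genes were called in either direction, and 11 members had an unadjusted p under 0.05. DESeq2 called 1 member, *Gbp6*, and 3.46% of all genes, and limma with voom called no member (5 with an unadjusted p under 0.05) and 0.542% of all genes. The median log2 difference was 0.31, with 35 members above 0. Without S460 edgeR called 2 members (2.40% of all genes), without S451 it called 1 (0.647%), and it called none when any other mouse was left out.

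**Figure D2:**
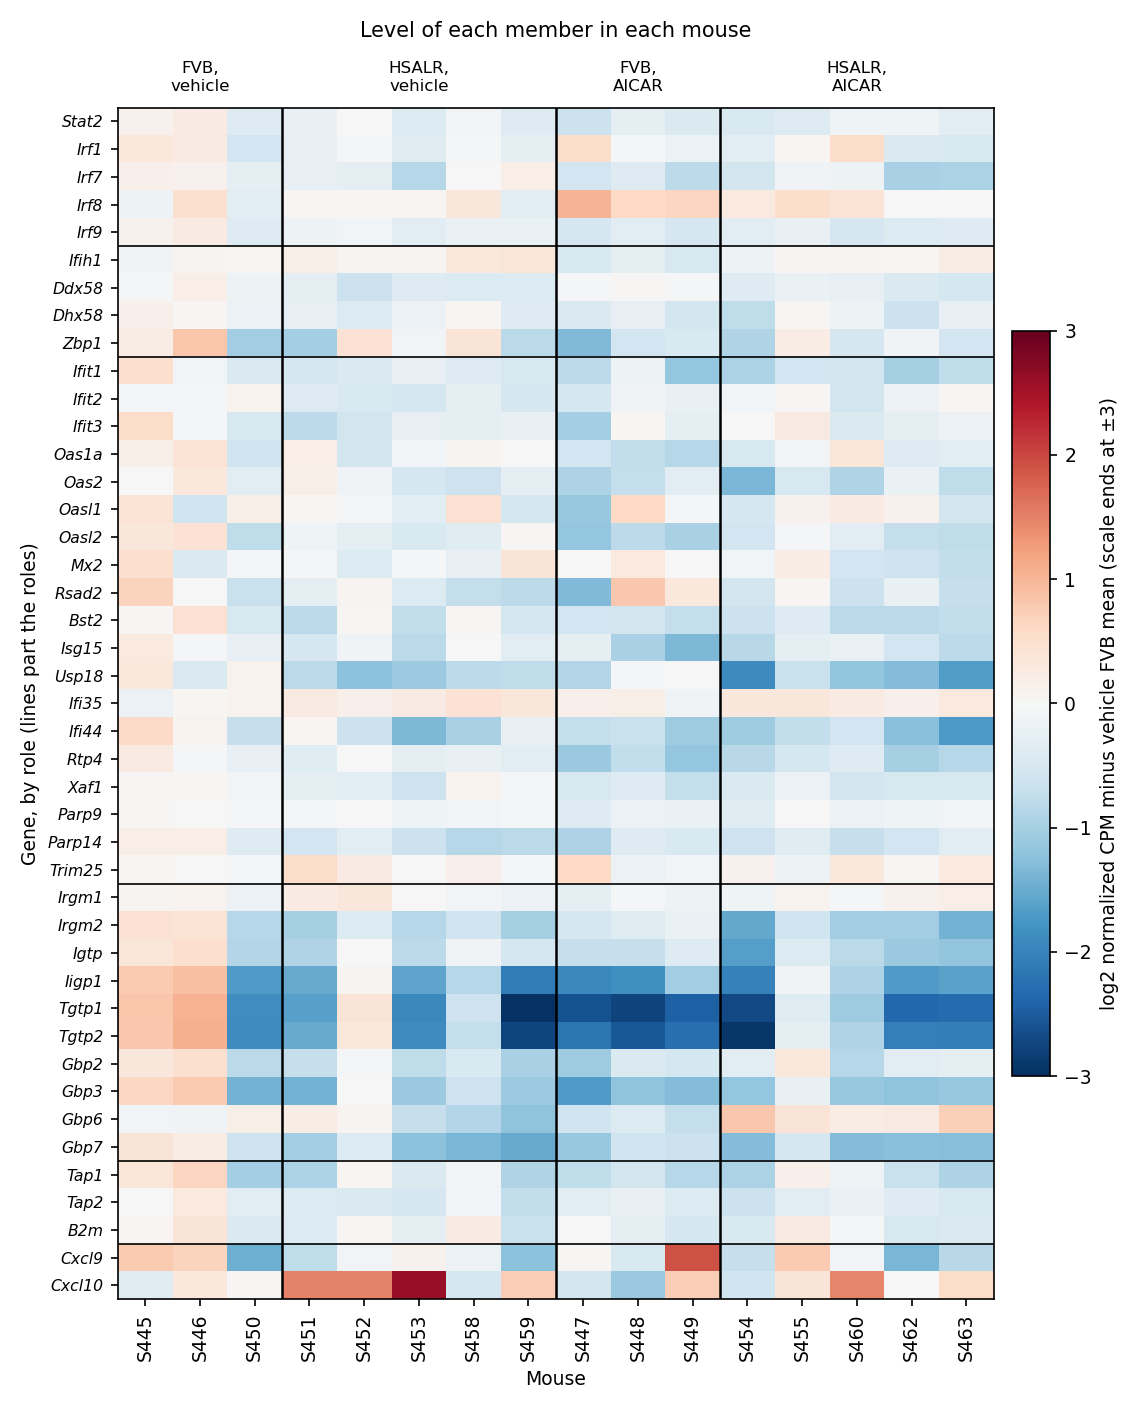
Level of each of the 43 members (rows, by role) in each mouse (columns, by group) as log2 normalized CPM minus the vehicle FVB mean, from blue (lower) to red (higher). The GTPase rows from *Irgm2* to *Gbp3* are red in S445 and S446 and blue in S450 and in most mice of the other groups, with S452 and S455 paler than their neighbours.

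**Figure D3:**
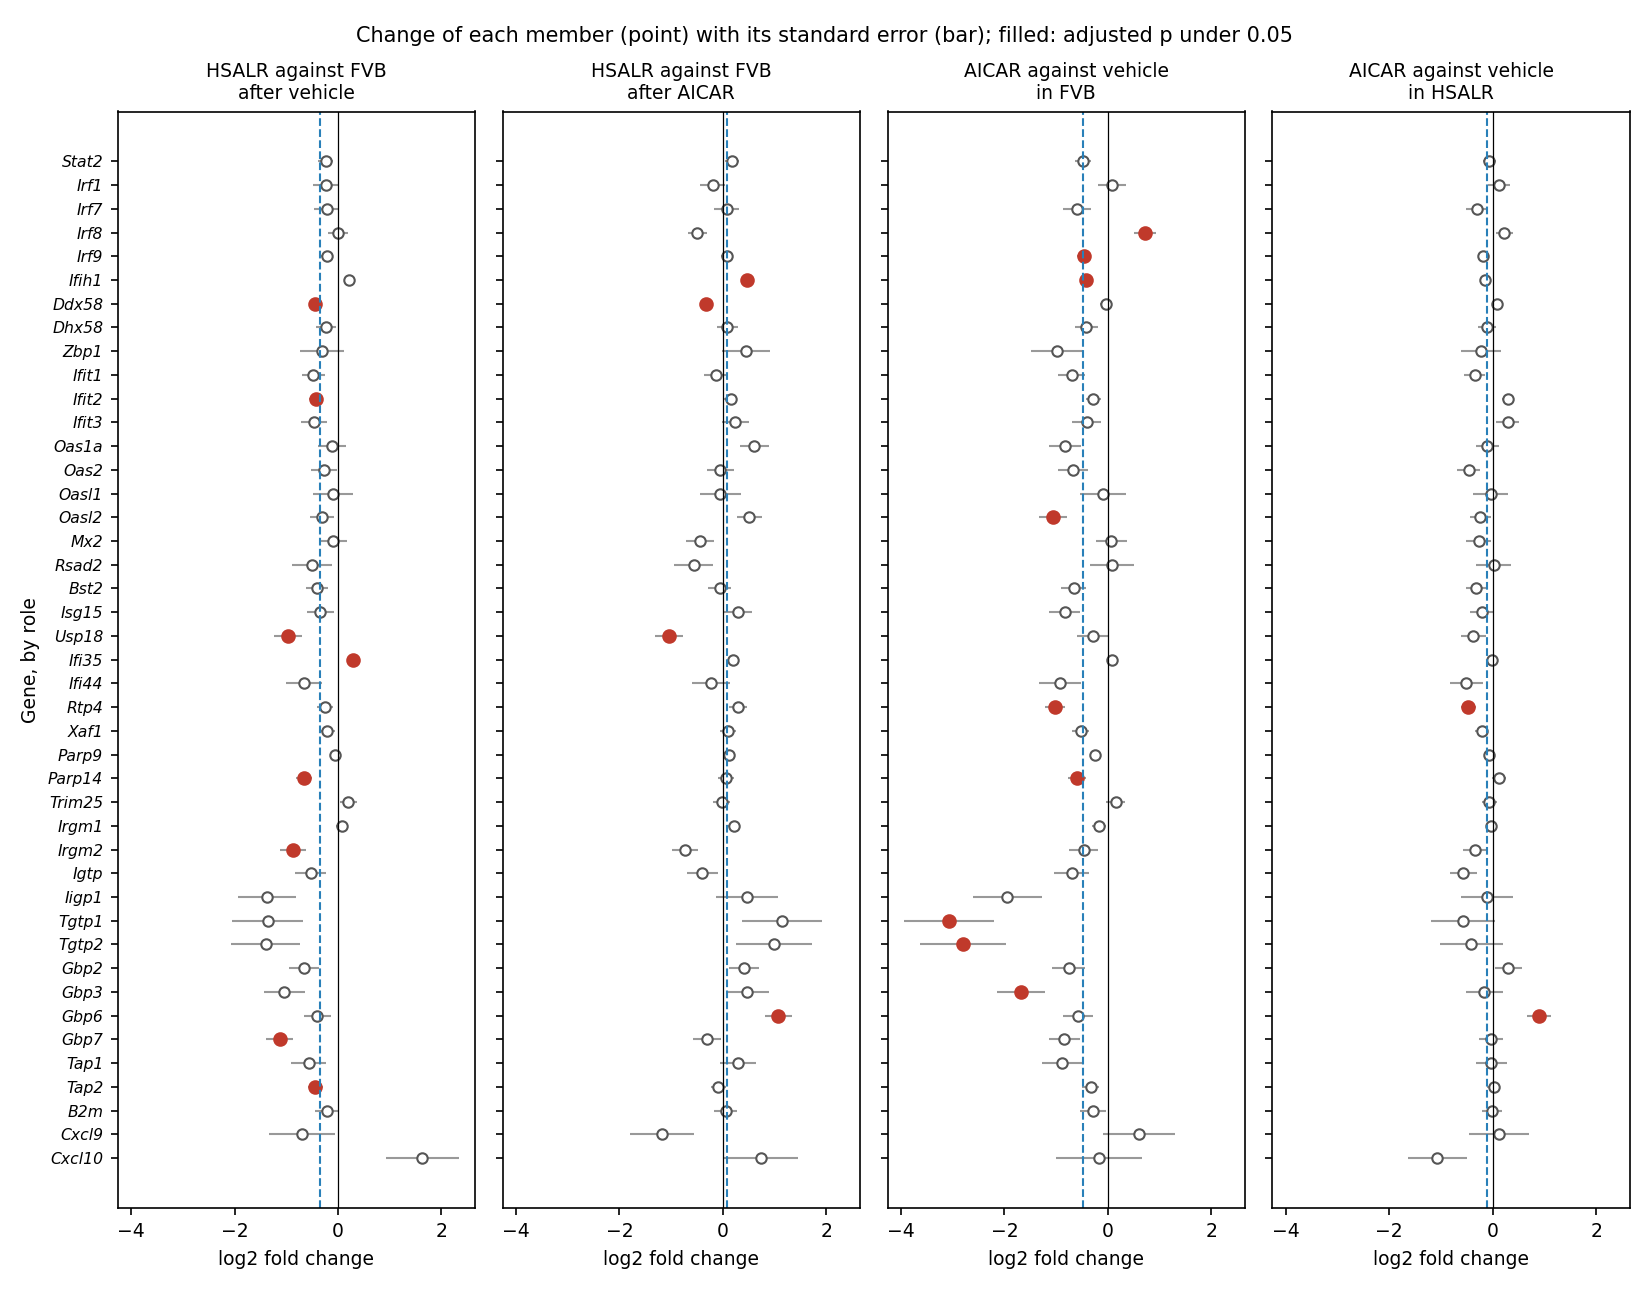
Log2 fold change of each member (point) with its standard error (bar) in the 4 comparisons, with filled points for an adjusted p under 0.05 and a dashed line at the median of the 43 members. The medians lie at -0.34, 0.08, -0.48 and -0.10 from left to right, and most called members lie to the left of 0 in the panels with medians of -0.34 and -0.48.

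Per length of transcript, *B2m* had the highest level in vehicle-treated FVB mice, at a mean of 132 normalized CPM per kilobase. *Irgm1* followed with 10.6 and *Igtp* with 9.72, while *Cxcl9* (0.150), *Oasl1* (0.139) and *Cxcl10* (0.109) were the lowest. The lowest count of any member in any library was 3, for *Cxcl10*. In a bulk sample, fewer cells of a type and less RNA per cell cannot be told apart.

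The transcription factors carry the signal to the nucleus, and their median log2 fold change was -0.22 for HSALR against FVB after vehicle and -0.47 for AICAR in FVB mice. *Irf9*, the DNA-binding part of the complex at ISRE, was at 8.59, 9.28 and 5.96 normalized CPM in vehicle-treated FVB mice and at 5.46, 6.26 and 5.53 after AICAR. *Irf9* in HSALR mice was at 7.07, 7.35, 6.32, 6.79 and 6.76 after vehicle and at 6.25, 6.72, 5.53, 5.88 and 5.92 after AICAR. S445 and S446 were above the other 14 mice, and S450 overlapped with the AICAR-treated mice. *Irf9* was lower after AICAR in FVB mice (log2 fold change -0.47 ± 0.13 (SE), adjusted p = 0.029), and the call was lost when S445, S446, S447 or S449 was left out singly (log2 fold change -0.44 to -0.34, adjusted p = 0.083 to 0.13). *Stat2*, its partner, was at 8.44, 9.04 and 5.88 in vehicle-treated FVB mice and at 4.86, 6.22 and 5.67 after AICAR. The levels of *Stat2* in HSALR mice were 6.51, 7.67, 5.72, 7.24 and 5.81 after vehicle and 5.54, 5.89, 7.03, 6.96 and 6.13 after AICAR. S445 and S446 were again the highest mice, but edgeR called no comparison of *Stat2*, with log2 fold changes between -0.48 and 0.18 in the 4 comparisons. DESeq2 called it lower after AICAR in FVB mice. Without S450 both genes were called lower in HSALR mice after vehicle, *Irf9* by -0.38 (adjusted p = 0.0085) and *Stat2* by -0.41 (adjusted p = 0.041), and *Stat2* was lower after AICAR in FVB mice (-0.65, adjusted p = 0.014).

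*Irf8*, a factor known from macrophages and dendritic cells, was the member called higher after AICAR in FVB mice. In FVB mice *Irf8* was at 4.55, 7.06 and 4.05 normalized CPM after vehicle and at 10.2, 7.75 and 7.91 after AICAR. *Irf8* in HSALR mice was at 5.18, 5.23, 5.26, 6.38 and 4.06 after vehicle and at 6.27, 7.32, 6.71, 5.13 and 5.09 after AICAR. All 3 AICAR-treated FVB mice were above the vehicle-treated ones, and *Irf8* was higher (log2 fold change 0.72 ± 0.21 (SE), adjusted p = 0.032), although the call was lost when S445, S450, S447 or S449 was left out singly (log2 fold change 0.57 to 0.78, adjusted p = 0.057 to 0.12). The summed leukocyte level in FVB mice was 61.0 to 85.6 after vehicle and 63.0 to 73.4 after AICAR. The part of such cells in the level of *Irf8* was not tested. *Irf1*, induced mainly by interferon gamma, was at 16.7, 16.1 and 9.08 in vehicle-treated and 19.3, 13 and 12 in AICAR-treated FVB mice. Its levels in HSALR mice were 11.3, 13.2, 10.4, 12.9 and 11.2 after vehicle and 10.7, 14, 19.7, 10.0 and 9.79 after AICAR. The groups overlapped in all 4 comparisons, and S447 and S460 were the highest mice. *Irf7*, the factor that amplifies type I interferon, was low throughout, at 2.19, 2.17 and 1.64 in vehicle-treated FVB mice and at 1.32, 1.52 and 1.15 after AICAR. *Irf7* in HSALR mice was at 1.67, 1.6, 1.08, 1.97 and 2.27 after vehicle and at 1.34, 1.83, 1.79, 1 and 1.01 after AICAR. The AICAR-treated FVB mice were below the vehicle-treated ones, without a call (log2 fold change -0.59 ± 0.27 (SE), adjusted p = 0.17).

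Among the sensors, *Ddx58* was lower in HSALR than in FVB mice after both treatments, and *Ifih1* was higher in HSALR mice after AICAR. *Ddx58* encodes RIG-I, which binds RNA with a triphosphate end, and *Ifih1* encodes MDA5, which binds long double-stranded RNA. *Ddx58* was at 6.5, 7.69 and 6.03 normalized CPM in vehicle-treated FVB mice and at 5.43, 4.27, 5.16, 5.02 and 5.04 in HSALR mice. After AICAR *Ddx58* was at 6.41, 6.85 and 6.39 in FVB mice and at 5.13, 5.87, 5.62, 4.97 and 4.63 in HSALR mice. The genotypes did not overlap after either treatment. *Ddx58* was lower in HSALR mice after vehicle (log2 fold change -0.44 ± 0.10 (SE), adjusted p = 0.0047), a call that was kept in all 8 fits without a mouse. It was also lower after AICAR (log2 fold change -0.32 ± 0.10 (SE), adjusted p = 0.034), but the call was lost when S447, S448, S449, S454, S462 or S463 was left out singly (log2 fold change -0.34 to -0.28, adjusted p = 0.064 to 0.11).

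*Ifih1* was at 4.77, 5.41 and 5.23 in vehicle-treated FVB mice and at 5.78, 5.45, 5.4, 6.41 and 6.6 in HSALR mice. After AICAR *Ifih1* was at 3.7, 4.24 and 3.64 in FVB mice and at 4.61, 5.46, 5.41, 5.29 and 6 in HSALR mice. The AICAR-treated FVB mice were the lowest group, without overlap with any other. *Ifih1* was lower after AICAR in FVB mice (log2 fold change -0.41 ± 0.11 (SE), adjusted p = 0.024), though the call was lost when S446, S450, S447 or S449 was left out singly (log2 fold change -0.40 to -0.37, adjusted p = 0.066 to 0.093). In AICAR-treated mice it was 1.39-fold higher in HSALR than in FVB (log2 fold change 0.47 ± 0.10 (SE), adjusted p = 0.0041), and this call was kept in all 8 fits without a mouse. *Dhx58*, which encodes a regulator of both helicases, ranged from 0.494 to 0.953 over the 16 mice, and *Zbp1*, a sensor of left-handed nucleic acid, from 0.199 to 0.982. Neither was called in a comparison.

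Of the 19 effectors and regulators, 1 was higher (all genes 15.4%) and 3 were lower (11.5%) in HSALR mice after vehicle, with a median log2 fold change of -0.32. After AICAR in FVB mice 3 were lower (all genes 4.77%), with a median of -0.52. *Usp18* removes ISG15 from proteins and dampens signalling at the type I interferon receptor. It was at 2.26, 1.34 and 1.97 normalized CPM in vehicle-treated FVB mice and at 1.03, 0.761, 0.845, 1.04 and 1.05 in HSALR mice. After AICAR *Usp18* was at 0.981, 1.73 and 1.83 in FVB mice and at 0.466, 1.13, 0.782, 0.716 and 0.551 in HSALR mice. All 5 HSALR mice were below the 3 FVB mice after vehicle, and S455 alone overlapped with FVB mice after AICAR. *Usp18* was 1.96-fold lower in HSALR mice after vehicle (log2 fold change -0.97 ± 0.27 (SE), adjusted p = 0.014), and the call was lost without S445 (log2 fold change -0.81, adjusted p = 0.079). After AICAR it was 2.07-fold lower (log2 fold change -1.05 ± 0.27 (SE), adjusted p = 0.012), and the call was lost when S448 or S449 was left out singly (log2 fold change -0.94 to -0.89, adjusted p = 0.052 to 0.06).

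*Ifit2*, which binds viral RNA and restrains translation, was at 6.49, 6.31 and 7.09 in vehicle-treated FVB mice and at 5.09, 4.8, 4.58, 5.46 and 4.66 in HSALR mice. After AICAR *Ifit2* was at 4.56, 6.15 and 5.67 in FVB mice and at 6.25, 6.75, 4.54, 5.85 and 6.9 in HSALR mice. The vehicle-treated HSALR mice were all below the FVB mice, with S450 as the highest of the latter. *Ifit2* was lower in HSALR mice after vehicle (log2 fold change -0.43 ± 0.13 (SE), adjusted p = 0.019), and the call was lost when S445 or S450 was left out singly (log2 fold change -0.45 to -0.38, adjusted p = 0.05 to 0.078). *Parp14*, an ADP-ribosyltransferase, was at 19.3, 19.3 and 12.9 in vehicle-treated FVB mice and at 11.3, 13.4, 10.7, 9.3 and 9.64 in HSALR mice. After AICAR *Parp14* was at 8.9, 12.8 and 12.3 in FVB mice and at 11, 13.1, 10.4, 11.3 and 13.4 in HSALR mice. S445 and S446 were the 2 highest of all mice, and among vehicle-treated HSALR mice S452 alone was above S450. *Parp14* was lower in HSALR mice after vehicle (log2 fold change -0.66 ± 0.15 (SE), adjusted p = 0.0052) in all 8 fits without a mouse. It was also lower after AICAR in FVB mice (log2 fold change -0.60 ± 0.18 (SE), adjusted p = 0.035), where the call was lost when S445, S446, S447 or S449 was left out singly (log2 fold change -0.66 to -0.45, adjusted p = 0.064 to 0.13).

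*Rtp4*, which has been linked to the control of the response to viruses, was the member whose fall with AICAR was called in both genotypes. In FVB mice *Rtp4* was at 3.31, 2.65 and 2.3 normalized CPM after vehicle and at 1.25, 1.62 and 1.2 after AICAR. *Rtp4* in HSALR mice was at 2.1, 2.69, 2.27, 2.34 and 2.16 after vehicle and at 1.51, 1.88, 2.09, 1.34 and 1.48 after AICAR. The treatments did not overlap in either genotype. The fall was 2.02-fold in FVB mice (log2 fold change -1.02 ± 0.19 (SE), adjusted p = 0.0029), and this call was kept in all 6 fits without a mouse. In HSALR mice it was 1.39-fold (log2 fold change -0.48 ± 0.14 (SE), adjusted p = 0.024), and the call was lost when S452, S454, S462 or S463 was left out singly (log2 fold change -0.44 to -0.41, adjusted p = 0.057 to 0.063). The call in HSALR mice was also lost with the level of epidermal markers as a covariate in edgeR (-0.45, adjusted p = 0.13). Without the 6 libraries with Krt14, which leaves only S451 in the vehicle group, the log2 fold change in HSALR mice was -0.34. The difference between the changes in the 2 genotypes was 0.54 on the log2 scale (adjusted p = 0.3).

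*Oasl2*, a relative of the oligoadenylate synthetases, was at 3.07, 3.28 and 1.43 in vehicle-treated FVB mice and at 1.08, 1.4 and 1.23 after AICAR. *Oasl2* in HSALR mice was at 2.21, 2.03, 1.76, 1.89 and 2.51 after vehicle and at 1.62, 2.38, 1.91, 1.48 and 1.42 after AICAR. The FVB groups did not overlap, with S450 just above the highest AICAR-treated mouse. *Oasl2* was 2.09-fold lower after AICAR in FVB mice (log2 fold change -1.07 ± 0.27 (SE), adjusted p = 0.017), although the call was lost when S445, S446, S447 or S449 was left out singly (log2 fold change -1.06 to -0.86, adjusted p = 0.057 to 0.072). Without S450 *Oasl2* was also called lower in HSALR mice after vehicle (-0.61, adjusted p = 0.033). In FVB mice *Isg15*, which encodes a ubiquitin-like protein, was at 1.14, 0.893 and 0.774 after vehicle and at 0.768, 0.458 and 0.344 after AICAR. *Isg15* in HSALR mice was at 0.64, 0.856, 0.519, 0.938 and 0.733 after vehicle and at 0.507, 0.767, 0.797, 0.612 and 0.52 after AICAR. No comparison of *Isg15* was called, and the lowest adjusted p was that of AICAR in FVB mice (log2 fold change -0.84 ± 0.30 (SE), adjusted p = 0.08). *Ifi35* was the member called higher in vehicle-treated HSALR mice (log2 fold change 0.29 ± 0.08 (SE), adjusted p = 0.021), and it is named for that count after its values had been seen. *Ifi35* was between 10.1 and 12.1 normalized CPM in the 3 FVB mice and between 12.5 and 15.1 in the 5 HSALR mice, and the call was lost without S445 (log2 fold change 0.21, adjusted p = 0.13).

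The other effectors, *Ifit1*, *Ifit3*, *Oas1a*, *Oas2*, *Oasl1*, *Mx2*, *Rsad2*, *Bst2*, *Ifi44*, *Xaf1*, *Parp9* and *Trim25*, were not called in a comparison by edgeR, and DESeq2 called *Xaf1*, as lower after AICAR in FVB mice. Their log2 fold changes were between -0.65 (*Ifi44*) and 0.20 (*Trim25*) for HSALR against FVB after vehicle, and between -0.93 (*Ifi44*) and 0.15 (*Trim25*) for AICAR in FVB mice. *Ifit3* shares 51.2% of its stretches of 50 bases with *Ifit3b* and *Oas1a* shares 57.6% with *Oas1g*, so that their counts are uncertain. Transcripts of *Rtp4* and *Parp9* lie in loci that overlap *Masp1* and *Dtx3l*. The members *Stat2*, *Ifit1*, *Gbp2*, *B2m* and *Cxcl10* also overlap a counted gene, namely *Apof*, *Ifit1bl1*, *Mir6381*, *Patl2* and *Art3* in this order. For none of these members do the sources used here say whether strand was used in counting.

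The GTPases had a median log2 fold change of -0.95 for HSALR against FVB after vehicle and -0.80 for AICAR in FVB mice, beside -0.34 and -0.48 for all members. For the difference of the AICAR effects their median was 1.27, with all 10 above 0. EdgeR called 0 of them (7 at an unadjusted p under 0.05, and 0.691% of all genes called). DESeq2 called *Gbp6* (3.46% of all genes). The vehicle-treated FVB mice, with the high S445 and S446 among them, enter this difference for all 10 genes. Of these genes, 5 lie on chromosome 11 (*Tgtp1*, *Tgtp2*, *Irgm1*, *Igtp* and *Irgm2*) and 3 on chromosome 3 (*Gbp2*, *Gbp3* and *Gbp7*), with *Gbp6* on chromosome 5 (chr5:105270702-105295871, minus strand, GRCm38.p6). *Tgtp1* and *Tgtp2* encode a pair of immunity-related GTPases, and their transcripts share 79.4% of the stretches of 50 bases of *Tgtp1*, so that a split of reads between the 2 is uncertain. *Tgtp1* was at 23.3, 27.4 and 3.57 normalized CPM in vehicle-treated FVB mice and at 2.13, 1.91 and 2.39 after AICAR. *Tgtp1* in HSALR mice was at 4.27, 17.2, 3.45, 8.58 and 1.67 after vehicle and at 1.99, 10.2, 6.27, 2.54 and 2.65 after AICAR. S450 was within the range of HSALR mice and just above the AICAR-treated FVB mice, whereas S445 and S446 were above all other mice. The values of *Tgtp2* were 19.7, 23.7 and 3.02 in vehicle-treated and 2.45, 1.9 and 2.32 in AICAR-treated FVB mice. For HSALR mice they were 3.94, 13.9, 3.04, 6.85 and 1.64 after vehicle and 1.45, 9.2, 5.98, 2.69 and 2.66 after AICAR. Both genes followed the same order of mice in the vehicle-treated groups, with S452 the highest HSALR mouse and S459 the lowest. After AICAR in FVB mice *Tgtp1* was 8.43-fold lower (log2 fold change -3.08 ± 0.87 (SE), adjusted p = 0.03), but the call was lost when S445, S446, S447, S448 or S449 was left out singly (log2 fold change -3.16 to -2.65, adjusted p = 0.077 to 0.092). For *Tgtp2* the same comparison gave a 6.97-fold lower level (log2 fold change -2.80 ± 0.83 (SE), adjusted p = 0.037), and the call was lost when S445, S446, S447, S448 or S449 was left out singly (log2 fold change -2.88 to -2.36, adjusted p = 0.083 to 0.11). HSALR and FVB mice overlapped after vehicle, with log2 fold changes of -1.36 for *Tgtp1* (adjusted p = 0.16) and -1.40 for *Tgtp2* (adjusted p = 0.14). Without S450 the latter was -1.89 (adjusted p = 0.048). Without S452 both were called, at -2.02 for *Tgtp1* (adjusted p = 0.039) and -2.02 for *Tgtp2* (adjusted p = 0.036), and without S446 they were -0.93 and -0.95.

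*Iigp1*, another immunity-related GTPase, had the same pattern at 35.8, 38.6 and 6.30 in vehicle-treated FVB mice and 5.33, 5.75 and 9.9 after AICAR. *Iigp1* in HSALR mice was at 7.17, 21.7, 6.8, 11.4 and 4.76 after vehicle and at 5.01, 19.2, 10.9, 6.3 and 6.79 after AICAR. It was not called for AICAR in FVB mice (log2 fold change -1.94 ± 0.66 (SE), adjusted p = 0.065), and DESeq2 did call it. Limma with voom called none of the 10 GTPases in that comparison (5 at an unadjusted p under 0.05), with adjusted p-values of 0.10 for *Tgtp1*, 0.12 for *Tgtp2* and 0.096 for *Gbp3*. *Irgm2*, a regulator of the other GTPases, was at 27.6, 26.5 and 11 in vehicle-treated FVB mice and at 10.0, 15.2, 11.1, 13.2 and 10.0 in HSALR mice. After AICAR *Irgm2* was at 14, 15.6 and 17.4 in FVB mice and at 6.88, 13.2, 9.75, 9.71 and 7.49 in HSALR mice. S450 was within the range of vehicle-treated HSALR mice. *Irgm2* was 1.82-fold lower in HSALR mice after vehicle (log2 fold change -0.86 ± 0.25 (SE), adjusted p = 0.02), and the call was lost when S445 or S446 was left out singly (log2 fold change -0.70 to -0.65, adjusted p = 0.099 to 0.12). The call was also lost with the level of epidermal markers as a covariate in edgeR (-0.69, adjusted p = 0.084). Without S450 *Irgm2* was also called lower after AICAR in FVB mice (-0.79, adjusted p = 0.043). After AICAR the 5 HSALR mice were all below the 3 FVB mice, which edgeR did not call (log2 fold change -0.74 ± 0.26 (SE), adjusted p = 0.052). The adjusted p for *Irgm2* lay between 0.018, in DESeq2, and 0.15, without S449, over the alternatives, and edgeR called it without S455 (-0.89, adjusted p = 0.026). *Igtp*, its neighbour on chromosome 11, was at 23.5, 25.7 and 9.84 in vehicle-treated FVB mice and between 5.71 and 18.2 in the other groups, and no comparison was called. *Irgm1* did not share the pattern, with a range of 19.1 to 29.8 over the 16 mice.

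The guanylate-binding proteins are larger GTPases of the same response. *Gbp7* was at 25.9, 23 and 12.9 normalized CPM in vehicle-treated FVB mice and at 9.53, 14.8, 8.36, 7.61 and 6.85 in HSALR mice. After AICAR *Gbp7* was at 9.02, 13 and 12.5 in FVB mice and at 8, 13.9, 7.98, 8.27 and 8.11 in HSALR mice. S452 was the only vehicle-treated HSALR mouse above S450. *Gbp7* was 2.18-fold lower in HSALR mice after vehicle (log2 fold change -1.13 ± 0.26 (SE), adjusted p = 0.0052), and the call was kept in all 8 fits without a mouse. Without S450 it was also called lower after AICAR in FVB mice (log2 fold change -1.09, adjusted p = 0.033), as it was by DESeq2 with all libraries. *Gbp3* was at 11.1, 12.5 and 2.7 in vehicle-treated FVB mice and at 2.19, 3.13 and 2.91 after AICAR. *Gbp3* in HSALR mice was at 2.69, 7.16, 3.32, 4.69 and 3.4 after vehicle and at 3.21, 6.15, 3.26, 3.1 and 3.29 after AICAR. S450 was again within the range of AICAR-treated mice. *Gbp3* was 3.2-fold lower after AICAR in FVB mice (log2 fold change -1.68 ± 0.47 (SE), adjusted p = 0.028), but the call was lost when S445, S446, S447, S448 or S449 was left out singly (log2 fold change -1.79 to -1.33, adjusted p = 0.061 to 0.1). *Gbp3* was also called lower in HSALR mice after vehicle by DESeq2 and, in edgeR, without S452 or without S450 (-1.47, adjusted p = 0.0042). *Gbp2* was at 24.4, 27.2 and 11 in vehicle-treated FVB mice and between 9.22 and 24.2 in the other groups, without a call.

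*Gbp6* was the GTPase called higher after AICAR in HSALR mice. In FVB mice it was at 11, 10.9 and 13.2 after vehicle and at 7.69, 8.69 and 7.05 after AICAR. *Gbp6* in HSALR mice was at 13.5, 12.2, 7.19, 6.35 and 5.01 after vehicle and at 20.3, 15.2, 13.6, 14 and 19.1 after AICAR. All 5 AICAR-treated HSALR mice were above the 5 vehicle-treated ones and above all FVB mice, while all 3 AICAR-treated FVB mice were below the vehicle-treated ones. *Gbp6* was 1.86-fold higher after AICAR in HSALR mice (log2 fold change 0.89 ± 0.23 (SE), adjusted p = 0.009), and the call was kept in all 10 fits without a mouse. Among AICAR-treated mice it was 2.1-fold higher in HSALR than in FVB (log2 fold change 1.07 ± 0.27 (SE), adjusted p = 0.011), also kept in all 8 fits. The lower level after AICAR in FVB mice was not called (log2 fold change -0.58 ± 0.29 (SE), adjusted p = 0.21), and the difference of the 2 changes was 1.47 ± 0.37 (SE) on the log2 scale with an adjusted p = 0.083. Vehicle-treated HSALR mice were themselves spread, with 13.5 in S451 and 12.2 in S452 but 5.01 to 7.19 in the other 3 mice. Of the stretches of 50 bases of *Gbp6*, 45.9% are shared with *Gbp10*, which is no member, and the counts of the 2 genes are therefore uncertain. *Gbp10* was at 27.7, 22.9, 13, 10.8 and 8.73 in HSALR mice after vehicle and at 56.4, 37.7, 33.6, 38 and 46.1 after AICAR, and was higher after AICAR (log2 fold change 1.35 ± 0.27 (SE), adjusted p = 0.0021). The epidermal markers moved with this comparison, at a summed 0.612 to 187 normalized CPM in vehicle-treated and 0.242 to 0.371 in AICAR-treated HSALR mice. Without the 6 libraries with Krt14, which leaves only S451 in the vehicle group, the log2 fold change of *Gbp6* was 0.28 with an adjusted p of 0.48. With the epidermal score as a covariate it was 0.80 with an adjusted p of 0.066.

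**Figure D4:**
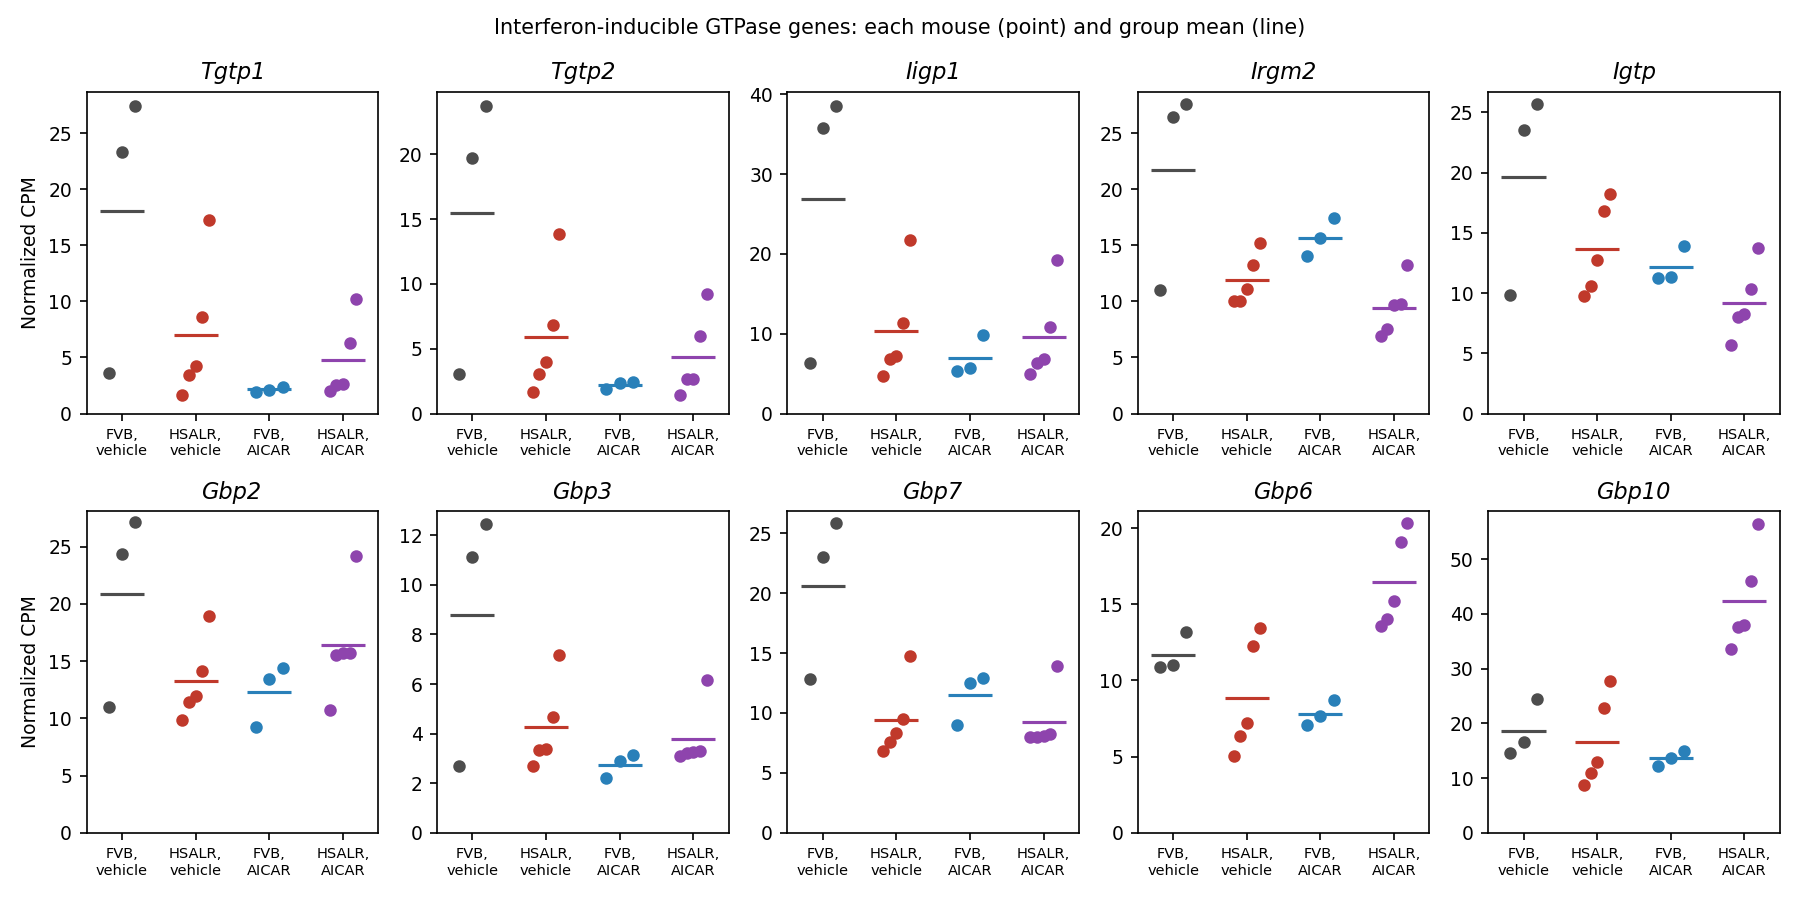
Normalized CPM of 9 member GTPase genes and of *Gbp10* in each mouse (points) with the group mean (line), by genotype and treatment. In the 8 panels from *Tgtp1* to *Gbp7* the vehicle FVB point that lies apart at the bottom is S450, and in *Gbp6* and *Gbp10* the 5 AICAR-treated HSALR mice lie above every other mouse.

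Of the 3 genes of antigen presentation 1 was called, as lower in HSALR mice after vehicle (all genes 11.5%). *Tap2*, a subunit of the peptide transporter, was at 15.3, 18.7 and 12.1 in vehicle-treated FVB mice and at 11.4, 11.3, 10.7, 14.2 and 9.14 in HSALR mice. After AICAR *Tap2* was at 12.2, 13 and 11.4 in FVB mice and at 9.66, 12.2, 13.1, 11.6 and 10.9 in HSALR mice. S458 overlapped with the FVB mice after vehicle, where *Tap2* was lower in HSALR mice (log2 fold change -0.44 ± 0.14 (SE), adjusted p = 0.031), and the call was lost when S445, S446, S453 or S459 was left out singly (log2 fold change -0.44 to -0.27, adjusted p = 0.06 to 0.21). *Tap1*, the other subunit, was at 8.07, 9.86 and 3.08 in vehicle-treated FVB mice and between 3.21 and 6.98 in the other groups. *B2m*, the light chain of MHC class I, was at 114, 143 and 81.5 in these mice and between 68.9 and 132 in the others. Neither gene was called. The chemokine genes *Cxcl9* and *Cxcl10*, which attract T cells, had few reads, with 8 to 97 and 3 to 58 counts per library. The groups overlapped for both in all comparisons, and neither was called, with log2 fold changes of -0.70 and 1.63 for HSALR against FVB after vehicle.

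Other genes of the pathway were taken from 5 lists. Of 16 interferons, receptors and signalling genes 13 were tested. *Ifnb1* and *Ifnk* had 0 counts in all 16 libraries and *Ifng* had at most 2, in S452. The inhibitor *Pias1* was lower in HSALR mice after vehicle (-0.23 on the log2 scale). With AICAR in HSALR mice 3 of the 13 were higher (all genes 13.7%), namely *Jak2* (0.54), *Ifngr1* (0.36) and *Stat3* (0.26). The feedback inhibitor *Socs1* (-1.04) was lower (all genes 13.0%). *Stat3* was also called higher with AICAR in FVB mice (all genes 8.40%). In AICAR-treated mice *Jak2* was higher (all genes 12.2%) and *Ifngr2* lower (9.64%) in HSALR than in FVB.

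Of 17 genes of nucleic acid sensing, 3 were higher (all genes 15.4%) and 3 lower (11.5%) in HSALR mice after vehicle, and 3 were higher (12.2%) and 2 lower (9.64%) after AICAR. *Irf5*, a factor downstream of Toll-like receptors, was at 7.47, 7.28 and 4.23 normalized CPM in vehicle-treated FVB mice and at 14.4, 14.4, 12.6, 17.3 and 15.2 in HSALR mice. After AICAR *Irf5* was at 8.6, 9.52 and 7.19 in FVB mice and at 21.8, 21, 23.2, 24 and 28.7 in HSALR mice. The genotypes did not overlap after either treatment, and *Irf5* was higher in HSALR mice after vehicle (log2 fold change 1.22 ± 0.17 (SE), adjusted p = 9.5e-05) and after AICAR (log2 fold change 1.49 ± 0.17 (SE), adjusted p = 3e-05). *Irf3* was higher after vehicle as well (0.32), as was the adaptor *Ticam1* (0.51), whereas the double-stranded RNA kinase *Eif2ak2* was lower (-0.30), all on the log2 scale. With AICAR 2 of the 17 were higher (all genes 8.40%) and 3 lower (4.77%) in FVB mice. In HSALR mice 3 were higher (13.7%) and 0 lower (13.0%). After AICAR in FVB mice *Tlr9*, a receptor for DNA, was lower (-1.65), and limma with voom did not call it. It had few reads, with 28, 57 and 20 counts in FVB mice after vehicle and 6, 13 and 13 after AICAR. *Tlr7*, a receptor for single-stranded RNA, was at 2.3, 1.84 and 2.83 in FVB mice after vehicle and at 2.9, 4.58 and 5.21 after AICAR. *Tlr7* in HSALR mice was at 2.31, 1.69, 2.06, 2.03 and 2.23 after vehicle and at 4.46, 7.44, 4.35, 4.84 and 4.11 after AICAR. The treatments did not overlap in either genotype, and *Tlr7* was higher after AICAR in FVB (log2 fold change 0.87 ± 0.24 (SE), adjusted p = 0.029) and in HSALR mice (log2 fold change 1.29 ± 0.19 (SE), adjusted p = 0.00021).

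A list of 38 further interferon-inducible genes, 37 of them tested, held the remaining GTPases and antiviral genes. Of these 8 were lower (all genes 11.5%) and 2 higher (15.4%) in HSALR mice after vehicle, with a median log2 fold change of -0.34. After AICAR in FVB mice 6 were lower (4.77%) and 1 higher (8.40%), with a median of -0.44. After AICAR in FVB mice the lower genes with the largest change were *Trim34a* (-1.24), *Ddx60* (-1.01), *Uba7* (-0.91) and *Sp100* (-0.84). After vehicle the lower genes with the largest change were *Gbp9* (-1.12), *Ddx60* (-0.81), *Helz2* (-0.63) and *Uba7* (-0.62), the enzyme that activates ISG15. *Ifi204*, a sensor of DNA, was the gene higher with AICAR in FVB mice (0.63), and it was also higher in HSALR mice (0.81). In AICAR-treated mice 3 were higher (all genes 12.2%) and 1 was lower (9.64%) in HSALR, and the median was 0.20. With AICAR in HSALR mice 3 were higher, *Gbp10*, *Gbp11* and *Ifi204* (all genes 13.7%), and 3 lower (13.0%), with *Cmpk2* as the one with the largest change (-0.46). *Sp100*, a component of nuclear bodies, was at 10.5, 12.4 and 9.39 in vehicle-treated FVB mice and at 5.43, 6.39 and 6.27 after AICAR. *Sp100* in HSALR mice was at 8.13, 6.82, 6.97, 7.85 and 7.04 after vehicle and at 7.28, 7.34, 6.42, 7.24 and 6.7 after AICAR. It was the gene of these lists for which edgeR and limma with voom called a difference of the AICAR effects between the genotypes, and DESeq2 called *Gbp10* as well (*Sp100* in edgeR: log2 difference 0.77 ± 0.14, SE, adjusted p = 0.025). Of the 10 genes of the MHC class I pathway edgeR called the regulator *Nlrc5* and no other, as lower after AICAR in FVB mice (log2 fold change -1.59 ± 0.44 (SE), adjusted p = 0.028), where 4.77% of all genes were lower. DESeq2 also called *Psmb9* there, *Erap1* as higher after AICAR in HSALR mice and *Nlrc5* as lower in HSALR mice after vehicle, and limma with voom called none of the 10 (4 at an unadjusted p under 0.05 in the comparison of AICAR in FVB mice). The 6 genes of the MHC class II pathway were not called in edgeR's quasi-likelihood test, with an unadjusted p under 0.05 for 1 gene in 1 comparison, and DESeq2 called *H2-DMa* there, as lower after AICAR in HSALR mice.

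Markers of other cells differed between the groups too. Of 5 endothelial markers 4 were lower in HSALR mice after vehicle (all genes 11.5%), namely *Kdr* (-0.59), *Cdh5* (-0.49), *Pecam1* (-0.47) and *Tie1* (-0.45) on the log2 scale, and their summed level was 244 to 274 normalized CPM in FVB and 165 to 215 in HSALR mice. Of 8 leukocyte markers 2 were higher in HSALR mice after vehicle (all genes 15.4%), *Cd68* (0.77) and *Csf1r* (0.47), and their summed level was 61.0 to 85.6 in FVB and 79.3 to 102 in HSALR mice. Markers of T and NK cells summed to 0.247 to 0.987 and those of plasmacytoid dendritic cells to 0.616 to 1.32 over all 16 libraries, with *Cd8a* at 0 counts in 9 of the 16. The part of these cells in the levels of the interferon-inducible genes was not tested.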

How the data were processed

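RNA-seq libraries from *gastrocnemius* of 16 mice were analysed, with groups taken from the deposited labels. The authors mapped single-end reads of a stranded mRNA kit with STAR (2.5.2a, per the labels) to mm10, keeping 1 location for reads with equally good locations, and deposited counts of reads per RefSeq gene. The deposited table of counts also holds a length per gene, used here for levels per kilobase. Whether strand was used in counting is not given in the sources used here. Totals were between 64890014 and 81987726 counts per mouse. Of 24454 gene identifiers 24374 were matched to a symbol. All libraries differed by more than sampling noise (chi-square per degree of freedom of 24.0 to 134 within groups).

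Genes were filtered with filterByExpr, scaled by TMM and tested with edgeR (4.0.16, in R 4.3.3) by the quasi-likelihood test on all 16 libraries with 1 mean per group. Counts were used as deposited. There were 5 comparisons, each with Benjamini-Hochberg adjustment over 15487 genes and a threshold of 0.05. Log2 fold changes are AICAR against vehicle or HSALR against FVB. Normalized CPM are TMM-scaled, and scores used log2 CPM with a prior count of 2. Each library is from 1 mouse, so the spread is that between mice. Alternatives were DESeq2 (1.42.0), limma with voom (3.58.1), other scalings, filters and dispersions, fits of the groups compared only, an epidermal marker covariate, leaving out each mouse and, chosen after seeing the data, leaving out the 6 libraries with Krt14. The scripts were checked on simulated counts. Promoters came from RefSeq (GRCm38.p6), and shared stretches of 50 bases from GENCODE M21 transcripts.

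The members and the other gene lists were chosen with earlier results of these data known, and no p-value was adjusted over a list alone. Values per mouse are given for members called in a comparison and for *Stat2*, *Irf1*, *Irf7*, *Irf8*, *Irf9* and *Isg15*, and for other lists at most 4 called genes per comparison by size of change, plus *Ifnb1* and *Ifng*. A gene of the signalling list is not reported here. Other genes given per mouse were named after their values were seen.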

Additional observations from a re-analysis of the deposited data

Results flagged for a closer look

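S455 stood apart from the other 4 AICAR-treated HSALR mice for *Gbp3* (6.15 normalized CPM, next highest 3.29) and for *Gbp7* (13.9, next highest 8.27), by Dixon's test on a group of 5. Over the 44 groups of values tested these were the 2 found, where chance gives about 5%, or 1 in 20 groups. The summed leukocyte level of S455 was 111 normalized CPM, the highest of the 16 mice, and its part in these values was not tested.

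*Gbp6* was higher in all 5 AICAR-treated HSALR mice than in the 5 vehicle-treated ones and lower in all 3 AICAR-treated FVB mice than in the 3 vehicle-treated ones. The log2 difference of the changes was 1.47, with an adjusted p of 0.083 in edgeR's quasi-likelihood test and 0.0052 in DESeq2. *Sp100*, an interferon-inducible gene outside the 43 members, was lower after AICAR in FVB mice and not called in HSALR mice, and the difference of 0.77 on the log2 scale passed edgeR's quasi-likelihood test (adjusted p = 0.025). *Sp100* was not called without the 6 libraries with Krt14, where edgeR called no gene for this difference (18 of the 43 members had an unadjusted p under 0.05).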

How the results depend on the processing

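No result changed direction while past its threshold. Members called ranged, over the fits that left out 1 mouse each, from 4 to 16 for HSALR against FVB after vehicle, 2 to 6 after AICAR, 1 to 3 for AICAR in HSALR mice, 1 to 17 for AICAR in FVB mice and 0 to 2 for the difference of the AICAR effects. The shares of all genes called in these fits were 18% to 26.4%, 14.1% to 24.5%, 20.3% to 27%, 7.29% to 11% and 0.0959% to 2.4%, in the same order. The medians of the members over these fits ranged from -0.48 to -0.19, 0.04 to 0.18, -0.22 to -0.03, -0.64 to -0.42 and 0.24 to 0.46, in the same order. DESeq2 called 1 member for the difference of the AICAR effects (3.46% of all genes). With the epidermal covariate 0 members were called for AICAR in HSALR mice (7 at an unadjusted p under 0.05, and 14.8% of all genes called), and with only the groups compared 4 of the 42 tested were called for AICAR in FVB mice (7.88% of all genes). Without the 6 libraries with Krt14, 3 members were called for HSALR against FVB after vehicle and 0 for AICAR in HSALR mice (2 at an unadjusted p under 0.05), and the medians were -0.74 for AICAR in FVB mice and 0.59 for the difference. That alternative leaves 10 libraries and the cause of its effect was not tested. The other counts stayed within 1.5 times. Of the results for single named genes 2013 kept their side of the threshold, 89 lost it and 40 gained it. The 2013 include genes that were called in neither fit, whereas only a called result can lose its call. Among called results the calls lost ranged from 0 of 19 alternatives, as for *Ifih1* in HSALR against FVB after AICAR, to 8 of 17, for *Tgtp2* with AICAR in FVB mice. No paired analysis was possible because the mice of different groups share no number. The interaction uses all 4 groups, so a fit of only the groups compared does not differ from the one reported. Depth limits genes with few counts, such as *Cxcl10* with 3 to 58 and *Oasl1* with 8 to 34 counts per library.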

Other observations

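The genes of MHC class II, which professional antigen-presenting cells express, had a wide spread between vehicle-treated mice. *Cd74*, the invariant chain, was at 40.6, 103 and 22.9 normalized CPM in vehicle-treated FVB mice and at 36.4, 68.8, 61.9, 97.2 and 37.5 in HSALR mice. S446 and S458 were the highest for *Cd74*, while S445 was near the lower HSALR mice, so that the order of mice was not that of *Tgtp1*. After AICAR *Cd74* was at 36.4, 30.6 and 35.9 in FVB mice and at 37.1, 76.6, 50.9, 42.3 and 33.8 in HSALR mice, with S455 the highest of these 8.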
